A study of Caenorhabditis elegans with 205 samples.

Results

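RIC neurons are an interneuron class of the nematode Caenorhabditis elegans, known as the worm's octopamine-making neurons. They were represented by 4 libraries, RICr134 to RICr137, chosen by the class code in the deposited count table, out of the libraries of 53 sorted neuron classes. The libraries of the other 52 classes formed the comparison, and each class counted equally in it whatever its number of libraries. All groups were untreated worms grown on nutrient agar with the E. coli strain NA22, and cells of one class were isolated by fluorescence-activated cell sorting (FACS) into Trizol. RIC and RIM libraries were made from total RNA with the Tecan SoLo Ovation kit, which the labels describe for 180 libraries of 46 classes. The strain, sex, age and fluorescent reporter behind each sorted class are not given in the sources used here, and neither is whether libraries of a class came from separate cultures. The p-values therefore measure the spread between these libraries, which may be technical.

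Octopamine is a biogenic amine related to noradrenaline. It is made from tyrosine through tyramine: the decarboxylase TDC-1 makes tyramine and the hydroxylase TBH-1 turns tyramine into octopamine, so that cells with TDC-1 alone, such as the RIM interneurons, release tyramine. In the worm, octopamine is known as a signal of food absence, it acts on G protein-coupled receptors on other cells, and dopamine, which signals food, is known to oppose it.

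The 4 RIC libraries held 10126339, 9089327, 3888178 and 5109772 counts, within the range of all libraries used, 798303 to 24647021 (median 4692492). Values for RIC are given below in the order RICr134, RICr135, RICr136 and RICr137, as CPM (counts of a gene per 1000000 counts of its library) scaled by the trimmed mean of M values. RICr135 stood apart from the other RIC libraries. Across the 20427 genes tested, its Pearson's r of log2(CPM + 1) with them was 0.877 to 0.881, while the highest r of each of the others with a RIC library was 0.970 to 0.973, and its nearest library was AVKr110 (r = 0.942). For the 13 genes in which all 4 RIC libraries lay above every other library, RICr135 was compared with the mean of the other RIC libraries. Its level was 0.201 to 0.465 of that mean, with a median of 0.289. Genes in which RICr135 fell below another library are left out by this choice, so these values can understate its drop. Its summed level of 10 pan-neuronal genes was 0.314 of the mean of the other 3.

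Markers of other tissues moved the other way in RICr135. Summed muscle markers (6 genes) were at 400, 2474, 391 and 399 CPM in the 4 RIC libraries, intestine markers (6 genes) at 206.6, 3620, 310 and 191.7 CPM, and pharynx markers (6 genes) at 45.02, 349, 47.9 and 52.8 CPM. The medians of the other 52 class means were 1283, 762 and 219.2 CPM for these lists, so the other 3 RIC libraries lay below them. Coelomocyte markers (3 genes) summed to 1.32, 14.2, 4.59 and 0 CPM. Summed markers of glia (5 genes found) stayed at 15.2 to 24.02 CPM in all 4, and germline markers (6 genes) at 535 to 680 CPM, against a median of 316 CPM in the other classes. None of the muscle, intestine, pharynx, glia or coelomocyte markers was called in RIC in either direction by edgeR, described below, or by limma-voom, with 1 intestine gene higher and 1 glia gene lower at an unadjusted p under 0.05. Without RICr135, 2 pharynx genes, 1 glia gene and 1 coelomocyte gene were called lower. In bulk libraries fewer cells of a type and less RNA per cell cannot be told apart. All 4 libraries stayed in the tests, and values without RICr135 are given beside the main counts and the calls that turn on it among the genes described.

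**Figure D1:**
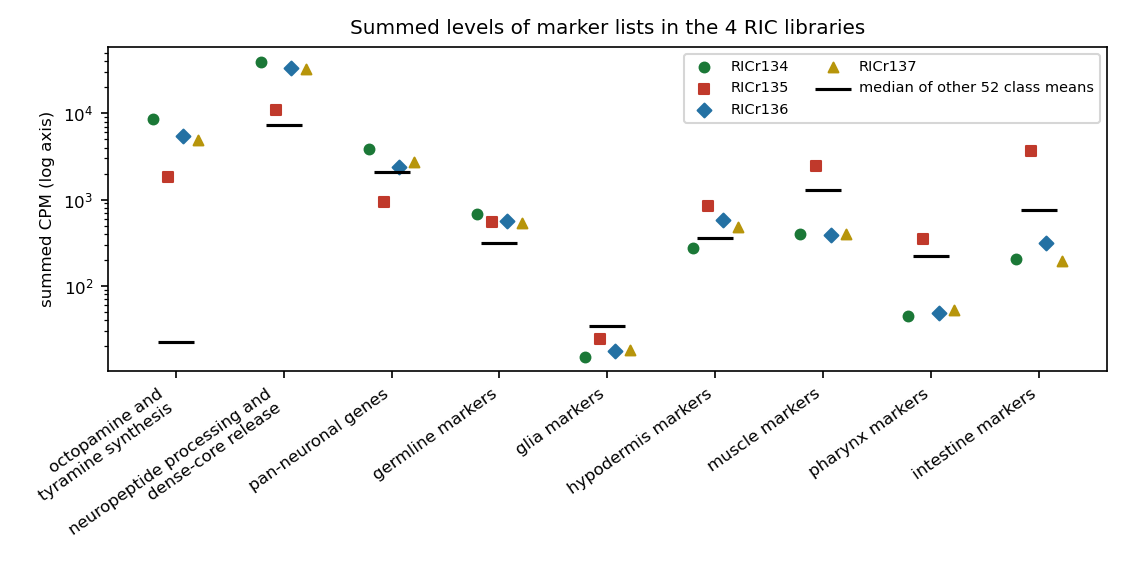
Summed CPM (log axis) of lists of genes in each of the 4 RIC libraries (coloured points), with the median of the other 52 class means as a black bar. RICr135 (red squares) lies below the other RIC libraries for octopamine and tyramine synthesis, peptide processing and pan-neuronal genes, and above them for muscle, pharynx and intestine markers.

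The genes that define RIC were present in all 4 libraries. The gene tbh-1 (WBGene00006541, chromosome X, 15500256 to 15504895 in WBcel235) had 6459, 1305, 3676 and 3398 CPM in RIC. In the other classes the highest mean was 24.8 ± 22.6 CPM (SD, n = 3) in NSM, the highest single library had 47.9 CPM, and the median class mean was 3.97 CPM. Every RIC library was thus above every library of the other classes, and the next classes in the order, NSM, HSN (22.6 CPM) and LUA (17.6 CPM), had overlapping libraries. The log2 difference of RIC from the mean of the other 52 classes was 9.76 with a standard error of 0.24 (edgeR adjusted p = 2.20e-82), and 10.02 without RICr135.

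The first enzyme of the pathway was shared with other classes. Levels of tdc-1 (WBGene00006562, chromosome II, 8270597 to 8273615) were 2173, 498, 1815 and 1523 CPM in RIC and 4418, 3494, 982 and 4042 CPM in the 4 RIM libraries. After RIM and RIC came AVE, with 607, 458 and 817 CPM, and the next class, OLL, had a mean of 64.6 CPM. RIC ranked second, and its libraries overlapped those of RIM and, through RICr135, those of AVE. The log2 difference of RIC from the mean of the other classes was 6.12 (SE 0.21, edgeR adjusted p = 2.14e-63), and RIC against RIM differed by -1.08 (SE 0.49), which did not pass the test (edgeR adjusted p = 0.176). In RIM, tbh-1 was at 0.708, 5.05, 19.3 and 3.13 CPM. The calcium-binding protein gene cex-1 and the guanylate cyclase gene gcy-13 are known from RIM. In these data cex-1 was highest in AVG (2868 CPM) and second in RIM, and gcy-13 highest in ASER (10.5 CPM). The gene cex-1 was at 0 to 3.82 CPM in RIC against 215.3 to 1234 CPM in RIM, and gcy-13 had no count in any RIC library and 0.472 to 1.30 CPM in RIM.

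**Figure D2:**
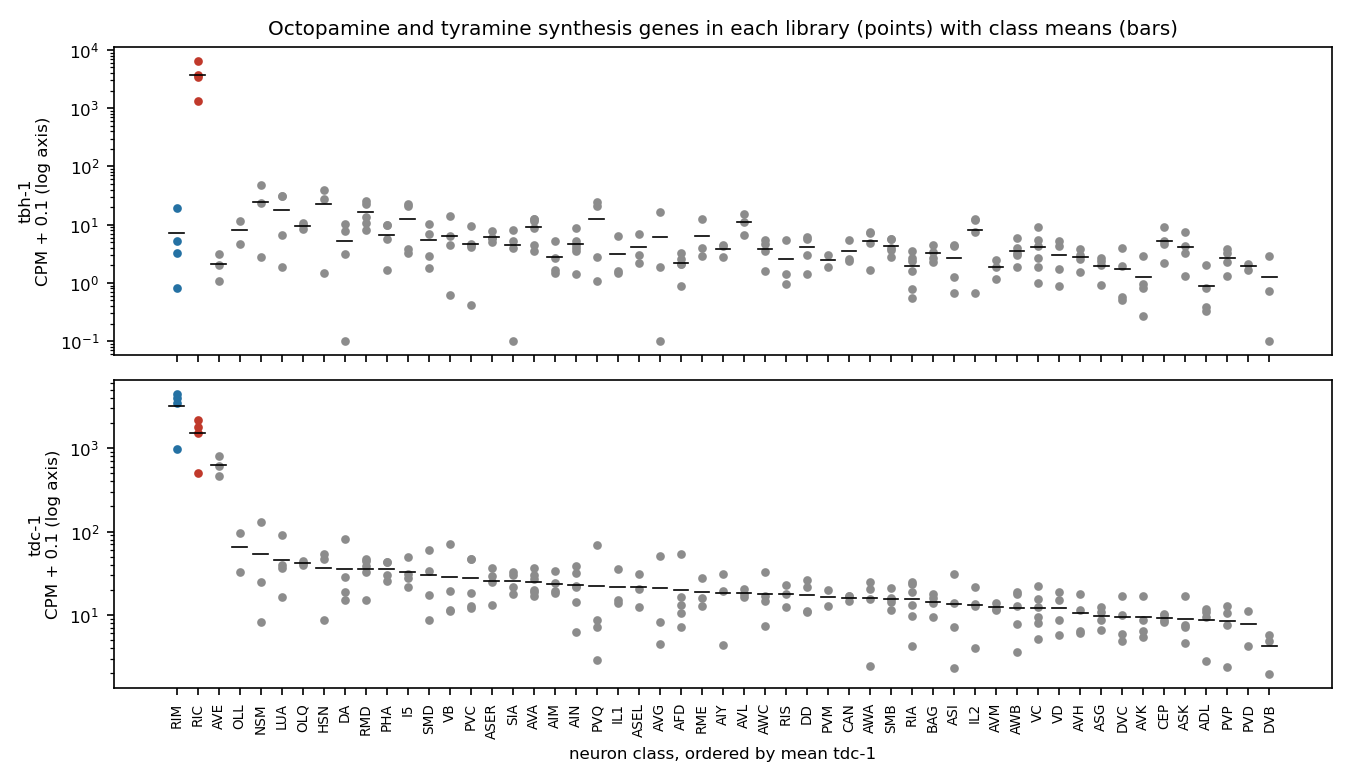
CPM plus 0.1 (log axis) of tbh-1 (upper panel) and tdc-1 (lower panel) in each library, with classes ordered by mean tdc-1. RIC libraries are red, RIM libraries blue, other libraries grey, and bars are class means. RIC alone reaches 1305 to 6459 CPM of tbh-1, while tdc-1 is high in RIM, RIC and AVE.

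Of the genes for loading vesicles with amines and for making other amines, 1 was called in RIC. The vesicular monoamine transporter gene cat-1 had 1038, 263, 812 and 781 CPM in RIC, second to RIM (741 CPM mean), and the difference between both did not pass the test (log2 difference -0.01, SE 0.48, edgeR adjusted p = 0.993). Its log2 difference from the other classes was 6.37 (SE 0.22, edgeR adjusted p = 1.56e-62). The other 8 of the 9 genes listed were not called, and the background share of all tested genes called higher in RIC was 9.68% (0.671% were called lower). The dopamine synthesis gene cat-2 was at 1.07 to 3.56 CPM and the serotonin synthesis gene tph-1 at 0.473 to 3.61 CPM in RIC, against 303 CPM in CEP and 273 CPM in NSM, the classes highest for each. The amine oxidase gene amx-2, which breaks amines down, was at 8.05 to 16.3 CPM in RIC and 59.7 to 194 CPM in RIM, and was higher in RIM (log2 difference -3.31, SE 0.41, edgeR adjusted p = 0.00106).

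Of the receptors for octopamine itself, none was called in RIC against the other classes by edgeR or limma-voom, and none had an unadjusted p under 0.05. The octopamine receptor genes ser-3, ser-6 and octr-1 were at 4.85 to 18.2, 2.13 to 13.99 and 0.947 to 10.5 CPM, and their sum ranked RIC 35th of 53 classes. The median class means of the other classes were 15.5, 5.60 and 4.14 CPM. Levels of ser-3 were 45.9 to 131.2 CPM in RIM, with no overlap with RIC (log2 difference of RIC from RIM -2.99, SE 0.41, edgeR adjusted p = 0.00168). The share of genes called higher in RIM was 7.08% of the 10889 tested between both classes, and 7.55% were higher in RIC.

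Of the 4 tyramine receptor genes 1 was called higher in RIC (against 9.68% of all genes tested). This was tyra-2, a G protein-coupled receptor gene, with 142.6, 26.2, 90.5 and 98.1 CPM against a median class mean of 11.21 CPM (log2 difference 2.96, SE 0.35, edgeR adjusted p = 1.21e-12). RIM had 20.7 to 85.2 CPM and overlapped RIC. The gene for the tyramine-gated chloride channel, lgc-55, was at 4.02 to 15.7 CPM in RIC and 32.9 to 188.8 CPM in RIM, again without overlap (log2 difference -3.72, SE 0.57, edgeR adjusted p = 0.00265). The levels of ser-2 and tyra-3 spanned 2.25 to 26.6 and 5.92 to 37.6 CPM in RIC and were not called in either comparison.

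Of 7 dopamine receptor genes, 4 were called higher in RIC (57.1%, against 9.68% of all genes tested). The D2-like receptor gene dop-2 had 677, 145.4, 218.6 and 307 CPM, against a median class mean of 20.1 CPM (log2 difference 4.02, SE 0.28, edgeR adjusted p = 8.47e-29). Its RIM libraries had 152.7 to 677 CPM, overlapping RIC, which ranked second (edgeR adjusted p = 0.637 between both). The other D2-like gene, dop-3, had 227.995, 41.8, 121.9 and 120 CPM in RIC and 2.87 to 7.42 CPM in RIM, with no overlap (log2 difference of RIC from RIM 4.78, SE 0.54, edgeR adjusted p = 0.000771). ASK (258 CPM) and AVK (157.1 CPM) had higher means of dop-3 than RIC. The gene of the dopamine-gated channel lgc-53 had 222.5, 51.8, 168 and 176.1 CPM in RIC against 4.48 to 13.7 CPM in RIM, and RIC ranked second after CEP (191.9 CPM). The D1-like receptor gene dop-4 had 32.6, 4.85, 25.6 and 21.9 CPM in RIC and 0.472 to 2.40 CPM in RIM. RICr135 was the lowest RIC library for each of these 4 genes. Genes on the opposite strand overlap dop-2 and dop-3, whose counts are uncertain because the sources used here do not give whether counting used the strand. The same limit holds for other genes named here with such an overlap, among them dop-1, dop-6, lgc-55, mod-1, eat-4, acr-8, flp-32 and egl-36. The receptor gene frpr-7, described below, overlaps genes on both strands.

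Of the remaining dopamine receptor genes, 2 were higher in RIM. The D1-like gene dop-1 was at 9.70 to 33.4 CPM in RIC and 48.5 to 152.5 CPM in RIM (log2 difference -2.19, SE 0.42, edgeR adjusted p = 0.00713), and dop-6 at 3.43 to 18.03 against 26.6 to 125 CPM (log2 difference -3.02, SE 0.56, edgeR adjusted p = 0.00631). Between both classes, dop-3, dop-4 and lgc-53 were thus higher in RIC and dop-1 and dop-6 higher in RIM. For dop-5, at 16.8 to 78.8 CPM in RIC and 48.2 to 99.8 CPM in RIM, neither comparison was called.

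Of 5 serotonin receptor genes, 3 were called higher in RIC than in the other classes, where 9.68% of all genes tested were called higher. The serotonin-gated chloride channel gene mod-1 had 191.95, 39.2, 107.5 and 114 CPM in RIC (median class mean 11.21 CPM, log2 difference 2.94, SE 0.29, edgeR adjusted p = 3.46e-17). The G protein-coupled receptor gene ser-4 had 114, 40.6, 82.0 and 81.3 CPM and ser-1 had 31.6, 8.99, 33.8 and 29.1 CPM, against median class means of 21.99 and 7.17 CPM. None of these 3 passed the test against RIM (edgeR adjusted p from 0.106 to 0.374), while ser-5 was higher in RIM (14.1 to 74.9 against 2.25 to 11.8 CPM, edgeR adjusted p = 0.00950). With all other libraries taken as one group, against which 0.948% of genes were higher in RIC, dop-2 and lgc-53 kept their calls, and tyra-2, dop-3, dop-4, mod-1, ser-1 and ser-4 lost theirs (adjusted p from 0.105 to 0.772).

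**Figure D3:**
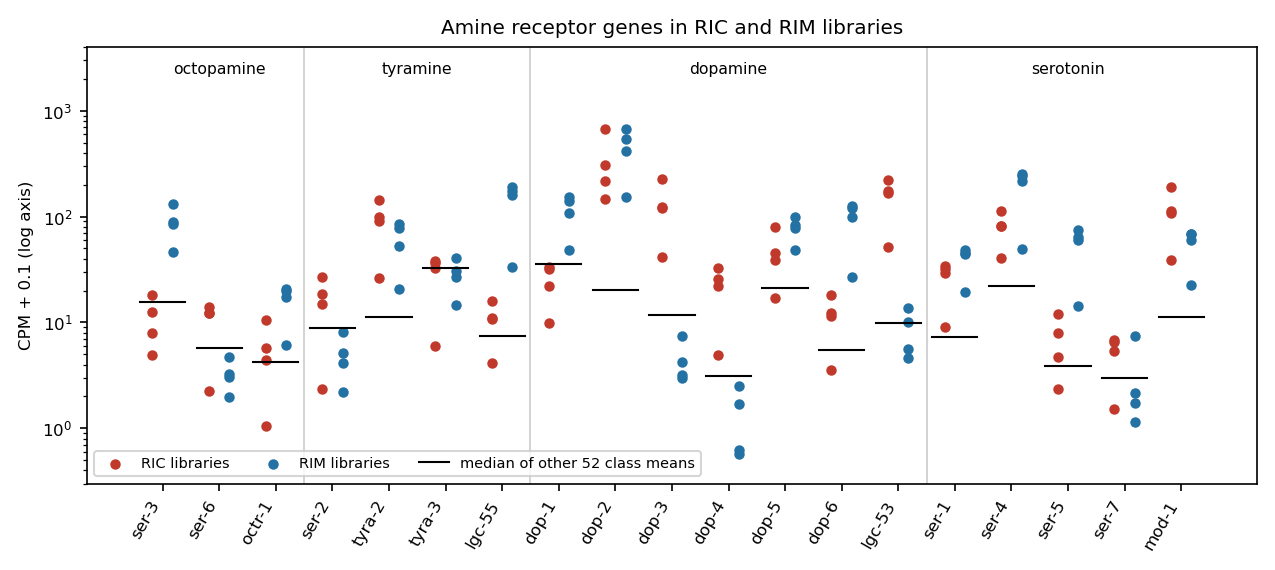
CPM plus 0.1 (log axis) of the octopamine, tyramine, dopamine and serotonin receptor genes in the 4 RIC (red) and 4 RIM (blue) libraries, with the median of the other 52 class means as a black bar. The RIC and RIM points separate for dop-3, dop-4 and lgc-53, higher in RIC, and for ser-3, lgc-55, dop-1, dop-6 and ser-5, higher in RIM.

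Genes for releasing classical transmitters were not called in RIC by edgeR or limma-voom, although 1 of 3 acetylcholine and 2 of 4 GABA genes were higher at an unadjusted p under 0.05. The vesicular glutamate transporter gene eat-4 had 27.5, 7.46, 30.2 and 29.1 CPM in RIC and 74.97 to 340 CPM in RIM, which was higher without overlap (log2 difference -3.43, SE 0.54, edgeR adjusted p = 0.00303). The acetylcholine genes unc-17 and cha-1, which overlap on the same strand and whose counts are uncertain for that reason, were at 20.5 to 97.7 and 7.81 to 48.5 CPM, with IL2 and SMD at 377 and 250 CPM. The GABA synthesis gene unc-25 had 127, 18.9, 112.4 and 133 CPM, above the median class mean of 36.7 CPM, whereas AVL had 3070 CPM. It was not called against the other classes (edgeR adjusted p = 0.0853) until RICr135 was left out (adjusted p = 0.0172). The same held for unc-46, a gene of GABA transporter sorting, at 1.18 to 8.92 CPM in RIC (adjusted p = 0.112, and 0.0266 without RICr135). The vesicular GABA transporter gene unc-47 was at 1.42 to 9.90 CPM in RIC.

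Of 10 genes for peptide processing and dense-core vesicles, 8 were called higher in RIC, against 9.68% of all 20427 tested genes. The median log2 difference of the list was 1.69, against 0.02 over all tested genes. The convertase gene egl-3 had 13022, 3607, 10063 and 9336 CPM, the carboxypeptidase E gene egl-21 had 7543, 2078, 7891 and 7102 CPM, and the convertase chaperone gene sbt-1 had 5992, 1699, 5409 and 5804 CPM. Their median class means were 2055, 1401 and 1163 CPM, and the summed level of the list ranked RIC second to AVL. The log2 differences were 2.25 (SE 0.32) for egl-3, 2.34 (SE 0.33) for egl-21 and 2.15 (SE 0.35) for sbt-1, with edgeR adjusted p-values of 3.09e-09, 1.65e-09 and 3.17e-07. The peptide-amidating enzyme gene pghm-1 (856 to 3342 CPM) and cab-1, a gene of dense-core release (1037 to 4537 CPM), followed with 2.17 and 1.81.

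The remaining 2 genes of the list were not called. The dense-core docking gene unc-31 had 186.3, 40.1, 85.2 and 135.1 CPM, with a log2 difference of -0.09 (SE 0.41), and unc-108 had 316 to 786 CPM (edgeR adjusted p = 0.0817, and 0.0373 without RICr135). The calls of hid-1, ida-1 and pamn-1 were lost without RICr134 (edgeR adjusted p = 0.115, 0.0526 and 0.342), and with all other libraries as one group none of the 8 calls remained. Against RIM, egl-3, egl-21, sbt-1, pghm-1 and ida-1 were higher in RIC (adjusted p from 0.0137 to 0.0489), and each of these calls was lost when 1 library was left out, egl-21 without RICr136 (adjusted p = 0.0529) and the others without any of several (adjusted p up to 0.188). Of 10 pan-neuronal genes, 0 were called by edgeR or limma-voom, 1 was higher at an unadjusted p under 0.05, and the median log2 difference was 0.32. Without RICr135 1 was called, the synaptic vesicle gene rab-3 (adjusted p = 0.0243, against 0.0798 with it).

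Among 148 peptide genes, all but 5 passed the filter on low counts. By edgeR, 39 were called higher in RIC and 0 lower, and 54 and 0 at an unadjusted p under 0.05. The higher share was 27.3%, against 9.68% higher and 0.671% lower of all genes. Genes with no count in some other class, such as ins-25, can hardly be called lower by the edgeR contrast. With RICr135 left out 43 were higher, and by limma-voom 32 were higher and 0 lower. By family these were 9 of 30 FMRFamide-like genes, 22 of 77 neuropeptide-like protein genes and 8 of 36 insulin-like genes, with median log2 differences of 0.73, 0.68 and 0.68. RIC ranked first of 53 classes for 8 of those tested. Per kilobase of exon, the highest mean levels in RIC were those of nlp-21 (7363 CPM per kb), flp-22 (6644), nlp-13 (5035), flp-5 (4718) and nlp-18 (4393).

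The neuropeptide gene nlp-46 (chromosome V, 12505059 to 12506285) was the peptide gene whose RIC libraries all lay above every other library. It had 431, 136.7, 562 and 518 CPM in RIC, and no other library exceeded 20.7 CPM. The log2 difference was 7.33 (SE 0.26, edgeR adjusted p = 2.83e-62). An insulin-like gene, ins-25, had 87.3, 14.1, 138.7 and 138.2 CPM against a median class mean of 0.535 CPM, a log2 difference of 7.42 (SE 0.29, edgeR adjusted p = 7.05e-56). AIY was its highest other class (31.4 CPM). Its library AIYr67, with 61.6 CPM, was 1 of 3 other libraries above RICr135, and the remaining RIC libraries were above all others.

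Abundant peptide genes were shared with other classes to different degrees. The gene nlp-21 had 6492, 1378, 8169 and 7200 CPM in RIC, the highest class mean, followed by AVL (2555 CPM) and RIM (500 to 2100 CPM), and 13 other libraries lay above RICr135. For nlp-13, RIC (4740, 1316, 4395 and 4593 CPM) was second to DVC (5897 CPM) and overlapped RIM (876 to 5334 CPM). For flp-22, RIC had 4039, 1167, 3878 and 4045 CPM, but AVL had 48097 CPM and RIC had rank 5. Levels of flp-5 were 3286, 865, 3549 and 3379 CPM, and the means of AIM (5263 CPM, with 17936 CPM in 1 of its 4 libraries) and PVQ (3804 CPM) were higher.

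Several of these genes separated RIC from RIM. In RIC, flp-32 had 805, 162.01, 1035 and 916 CPM and in RIM 6.37 to 22.5 CPM, nlp-7 had 1296, 503, 1175 and 1127 CPM against 3.54 to 19.97 CPM, and flp-5 and flp-22 were at 14.2 to 58.8 and 42.5 to 80.5 CPM in RIM. None of these libraries overlapped, and the log2 differences of RIC from RIM were 5.63 (SE 0.65), 6.89 (SE 0.72), 6.34 (SE 0.64) and 5.83 (SE 0.47), each with an edgeR adjusted p of 0.000871 or less. The difference of nlp-13 did not pass the test (0.19, SE 0.51, adjusted p = 0.847). The call of nlp-21 against RIM (1.95, SE 0.55, adjusted p = 0.0417) was lost without any 1 of 6 libraries, RICr134, RICr136, RICr137, RIMr222, RIMr223 or RIMr225 (adjusted p up to 0.125). Against the one group of other libraries, flp-32, nlp-13, nlp-21, nlp-46, nlp-81, ins-25, ins-27 and ins-29 kept their calls. The calls of flp-5, flp-16, flp-22, nlp-7 and nlp-57 were lost (edgeR adjusted p from 0.0615 to 0.742). So were those of ins-24 and ins-6, described below (edgeR adjusted p = 0.635 and 0.938).

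Other insulin-like genes high in RIC were ins-27, with 353, 108.9, 445 and 384 CPM, and ins-29, with 75.5, 17.6, 170 and 131.8 CPM. RIC had the highest class mean of both, above CEP for ins-27 (170.6 CPM) and above AWA for ins-29 (44.9 CPM). Also called higher, at lower CPM, were ins-24 (13.4 to 122.9 CPM) and ins-6 (6.98 to 28.04 CPM). For ins-17, at 17.04 to 107 CPM, the call was lost without RICr136 (edgeR adjusted p = 0.0993), and for flp-12 and flp-8 likewise (adjusted p = 0.0886 and 0.0787). These 3 genes changed sign when all other libraries were one group, where none passed the test (edgeR adjusted p from 0.784 to 0.974). The highest class means were 2804 CPM of ins-17 in SMB, with 1484 CPM in AIN, 10078 CPM of flp-12 in SMB and 4502 CPM of flp-8 in PVM.

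**Figure D4:**
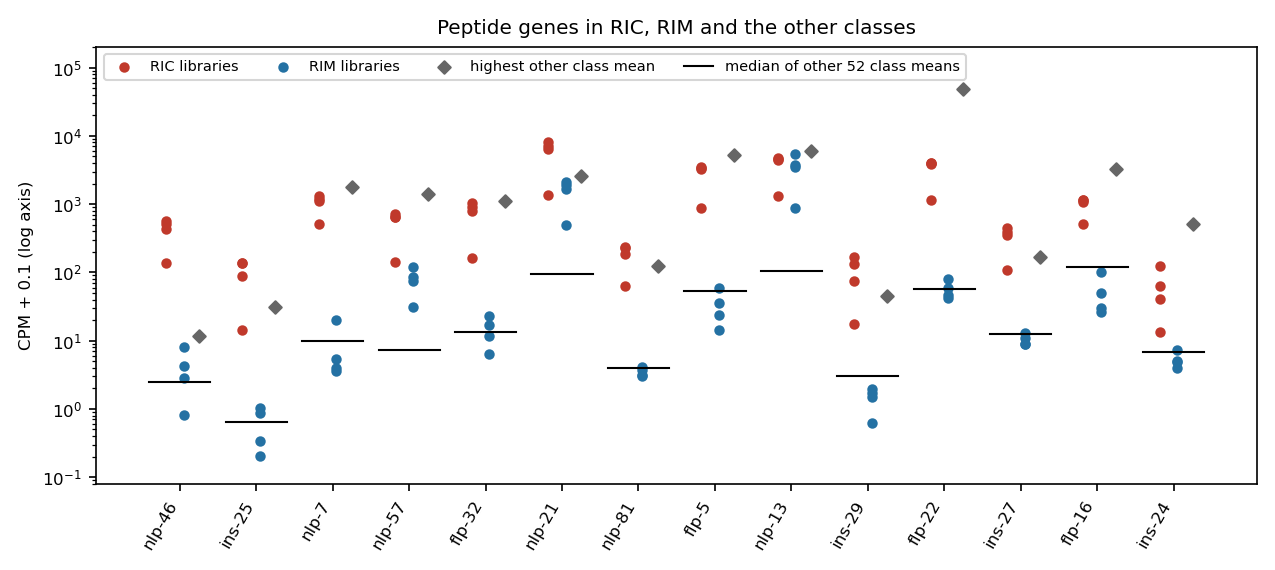
CPM plus 0.1 (log axis) of peptide genes in the 4 RIC libraries (red) and 4 RIM libraries (blue), with the highest other class mean (grey diamonds) and the median of the other 52 class means (black bars). RIC points lie above the diamond for nlp-46 in all 4 libraries, and RIC and RIM points overlap for nlp-13.

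Of 107 neuropeptide receptor genes, all but 2 of which were tested, 31 were called higher in RIC and 0 lower by edgeR. The higher share was 29.5%, against 9.68% higher and 0.671% lower of all genes. At an unadjusted p under 0.05 these were 38 and 1, and by limma-voom 23 and 1 were called (median log2 difference 0.49). The limit on lower calls by edgeR, given above for peptide genes, holds here too. Of the 81 tested against RIM, 18 were higher in RIC and 18 in RIM (7.55% and 7.08% of all genes). The highest by fold at 10 CPM or more were npr-34, with 266, 55.1, 214.1 and 237 CPM (log2 difference 3.72, SE 0.34, edgeR adjusted p = 3.15e-19), and frpr-2, with 40.001, 14.1, 30.8 and 24.2 CPM (3.58, SE 0.35, adjusted p = 4.18e-17). The receptor gene dmsr-7, with 350, 106.03, 261 and 258 CPM, followed (3.47, SE 0.28, adjusted p = 1.79e-22). ASER had 2881 CPM of npr-34 and 36.99 CPM of frpr-2, and RIC ranked second for frpr-2 and dmsr-7. The receptor gene frpr-7 (44.1 to 184.2 CPM, log2 difference 3.36, SE 0.31) was the 1 of the 31 that kept its call against the one group of other libraries (edgeR adjusted p = 0.0118).

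Glutamate receptor genes were called higher in 7 of 19 cases (36.8%, against 9.68% of all genes). Of the 16 tested against RIM, 1 was higher in RIC and 5 were higher in RIM (7.55% and 7.08% of all genes). The ionotropic receptor gene glr-5 had 1025, 220.7, 289 and 568 CPM in RIC, the highest class mean, followed by AVL (377 CPM) and RIM (164.4 to 379 CPM), whose libraries overlapped RIC. Its log2 difference from the other classes was 4.65 (SE 0.25, edgeR adjusted p = 1.04e-39). The chloride channel gene glc-2 also ranked first in RIC (60.5, 17.5, 47.2 and 52.001 CPM), next to PVD with 42.5 CPM. The chloride channel genes avr-14 (68.9 to 344 CPM) and glc-3 (15.3 to 88.1 CPM) followed with log2 differences of 2.35 and 3.20. The call of glr-4 was lost without RICr134 (adjusted p = 0.170), and that of glc-4 without RICr134 or RICr136 (adjusted p = 0.123 and 0.0984).

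Of the 8 GABA receptor genes 4 were called higher, and of the 36 acetylcholine receptor genes 4, against 9.68% of all genes tested. The acetylcholine receptor share was 11.1%, near that of all genes. The nicotinic subunit gene acr-8 had 53.3, 11.7, 34.7 and 32.9 CPM in RIC, the highest class mean, and 0.236 to 2.98 CPM in RIM (log2 difference of RIC from RIM 4.398, SE 0.71, edgeR adjusted p = 0.00344). For the GABA-gated channel gene unc-49, RIC had 203.6, 56.6, 166.9 and 152.2 CPM, a log2 difference from the other classes of 1.19 (SE 0.26, edgeR adjusted p = 0.000199). The GABA-B receptor genes gbb-1 and gbb-2 had 32.1 to 167.1 and 22.8 to 67.9 CPM, and both calls were lost without RICr134 (adjusted p = 0.107 and 0.256), that of gbb-2 also without RICr136 or RICr137 (0.0936 and 0.0724). The cation channel gene exp-1 (2.01 to 14.02 CPM) lost its call without RICr137 (adjusted p = 0.0602). Of the other acetylcholine receptor calls, unc-38 and unc-63 were lost without RICr134 (adjusted p = 0.112 and 0.349), and unc-63 also without RICr136 or RICr137 (0.0896 and 0.0543).

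Ion channel genes were called higher in 15 of 73 cases for potassium channels (median log2 difference 0.30, with 20 higher and 1 lower without RICr135) and in 3 of 12 for calcium and sodium leak channels, where nca-1 was not found under that symbol. The Shaw-type channel gene egl-36 had 173.2, 29.3, 96.4 and 107.8 CPM, second to AVL (556 CPM), against a median class mean of 4.03 CPM (log2 difference 4.02, SE 0.26, edgeR adjusted p = 1.08e-30). The voltage-gated channel gene kvs-1 (38.3 to 164.2 CPM) and the potassium leak channel gene unc-58 (35.6 to 162.8 CPM), which overlaps many genes, had log2 differences of 2.83 and 2.38 and overlapped RIM. A further Shaw-type gene, shw-3, was at 13.4 to 102.8 CPM in RIC and 2.36 to 6.90 CPM in RIM. The calls of nca-2 and tag-180, leak and calcium channel genes, were lost without RICr134 (adjusted p = 0.508 and 0.192), and that of nca-2 also without RICr137 (0.0708). Of the 25 innexin genes, which form gap junctions, 1 was called (4.0%, against 9.68% of all genes). This was unc-9, with 553, 100, 477 and 416 CPM (log2 difference 1.71, SE 0.32, edgeR adjusted p = 8.64e-06).

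Among transcription factor genes, hlh-13 had the largest log2 difference of those named. It encodes a basic helix-loop-helix factor (chromosome X, 4249249 to 4250766) and had 165.8, 49.8, 158.3 and 170.8 CPM in RIC. CEP, the dopaminergic class, was next with 34.1 ± 18.1 CPM (SD, n = 4), the median class mean was 0.660 CPM, and RIM had 0.236 to 1.38 CPM. The log2 difference from the other classes was 7.77 (SE 0.26, edgeR adjusted p = 4.27e-63) and held against the one group of other libraries (adjusted p = 1.41e-26). The helix-loop-helix gene hlh-2, an E protein gene, had 101, 11.01, 48.2 and 65.002 CPM, second to ADL (222.8 CPM), and 2.09 to 6.69 CPM in RIM. In all, 5 of 29 helix-loop-helix genes were called higher (17.2%, against 9.68% of all genes).

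Homeobox genes were called higher in 12 of 92 cases and nuclear receptor genes in 17 cases, a share of 7.33%, with 2 lower, against 9.68% higher and 0.671% lower over all genes. Without RICr135, 16 homeobox genes were higher, and 15 nuclear receptor genes were higher with 3 lower. By limma-voom these counts were 4 homeobox genes, and 9 nuclear receptor genes higher with 8 lower. The LIM homeobox gene lin-11 had 243, 82.8, 130 and 146.6 CPM in RIC and 64.1 to 354 CPM in RIM (log2 difference from the other classes 3.11, SE 0.25, edgeR adjusted p = 1.41e-22). The nuclear receptor gene nhr-46 had 429, 118.8, 325 and 344 CPM, the highest class mean, next to ADL with 301 CPM. The nuclear receptor gene fax-1 (9.94 to 38.7 CPM), the Prospero-type gene pros-1 (18.9 to 98.9 CPM) and the Meis-type gene unc-62 (66.4 to 206.8 CPM) had log2 differences of 3.65, 2.63 and 1.68. Of these 5 genes, nhr-46 kept its call against the one group of other libraries (adjusted p = 4.75e-10).

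In RIM the doublesex-family gene dmd-5 had 76.96 to 419 CPM, whereas in RIC it had at most 2 counts in any library. The homeobox gene ceh-62 was at 11.7 to 125 CPM in RIC, with a median class mean of 18.1 CPM, and at 64.5 to 245 CPM in RIM (log2 difference of RIC from the mean of the other classes 1.96, SE 0.37, edgeR adjusted p = 9.91e-06). The calls of ceh-24, lim-4 and unc-3, at 1.07 to 19.3 CPM in RIC, were lost without RICr134, RICr136 or RICr137 (adjusted p from 0.0563 to 0.313). Against the one group of other libraries their differences changed sign, and none passed the test (edgeR adjusted p from 0.699 to 0.924).

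Of 18 genes for energy and fasting signals, 4 were called higher and 1 lower in RIC, and 5 and 3 without RICr135. The higher share was 22.2%, against 9.68% higher and 0.671% lower of all genes (10.7% and 2.88% without RICr135). The CREB coactivator gene crtc-1 had 280, 102, 223.2 and 198.6 CPM in RIC and 39.7 to 85.4 CPM in RIM, with log2 differences of 1.69 (SE 0.30, edgeR adjusted p = 3.19e-06) from the other classes and 1.61 (SE 0.31, adjusted p = 0.00730) from RIM. The CREB gene crh-1 had 327, 110, 212.4 and 250 CPM in RIC and 62.3 to 93.2 CPM in RIM. Its call against the other classes (0.87, SE 0.29, adjusted p = 0.0317) was lost without RICr134, RICr136 or RICr137 (adjusted p from 0.103 to 0.347). The same was true of the calcineurin gene tax-6 without these libraries (adjusted p from 0.0770 to 0.317), and the kinase gene akt-2 lost its call without RICr134 (adjusted p = 0.167). The TOR kinase gene let-363 was lower in RIC, with 58.6, 63.1, 28.8 and 43.1 CPM against a median class mean of 99.3 CPM (log2 difference -1.004, SE 0.30, adjusted p = 0.0134), and lost its call without RICr136 or RICr137 (adjusted p = 0.126 and 0.0690).

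Adhesion and guidance genes were called higher in 6 of 42 cases (14.3%, against 9.68% of all genes), in 5 by limma-voom and in 2 against the one group, and without RICr135 8 were higher and 1 lower. RIC had the highest class means of the receptor phosphatase gene ptp-3 (2254, 659, 954 and 1244 CPM) and of the netrin receptor gene unc-40 (542, 154.6, 168 and 267 CPM), next to DVC (1187 CPM) and AVL (264 CPM). Their log2 differences from the other classes were 1.77 (SE 0.27) and 1.59 (SE 0.24), with edgeR adjusted p-values of 5.65e-08 and 4.57e-08, and both held against the one group (adjusted p = 0.0106 and 0.000520). The calsyntenin gene casy-1 (1238 to 5445 CPM) lost its call without RICr134 (adjusted p = 0.0537). The neuroligin gene nlg-1 had 224.8, 49.5, 165.9 and 160.8 CPM in RIC and 6.26 to 14.01 CPM in RIM (log2 difference of RIC from RIM 3.87, SE 0.46, adjusted p = 0.000926). Receptors of the chemoreceptor families were called higher in 15.2% of the 887 tested and lower in 1 (median log2 difference 0.17), with 4 higher against the one group. By limma-voom 19 were higher and 5 lower. The most different by fold at 10 CPM or more was sre-14, with 225.5, 38.5, 124 and 105.8 CPM in RIC, where AIN had 488 CPM, and srb-16 ranked first in RIC (88.3, 12.54, 55.4 and 50.98 CPM).

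**Figure D5:**
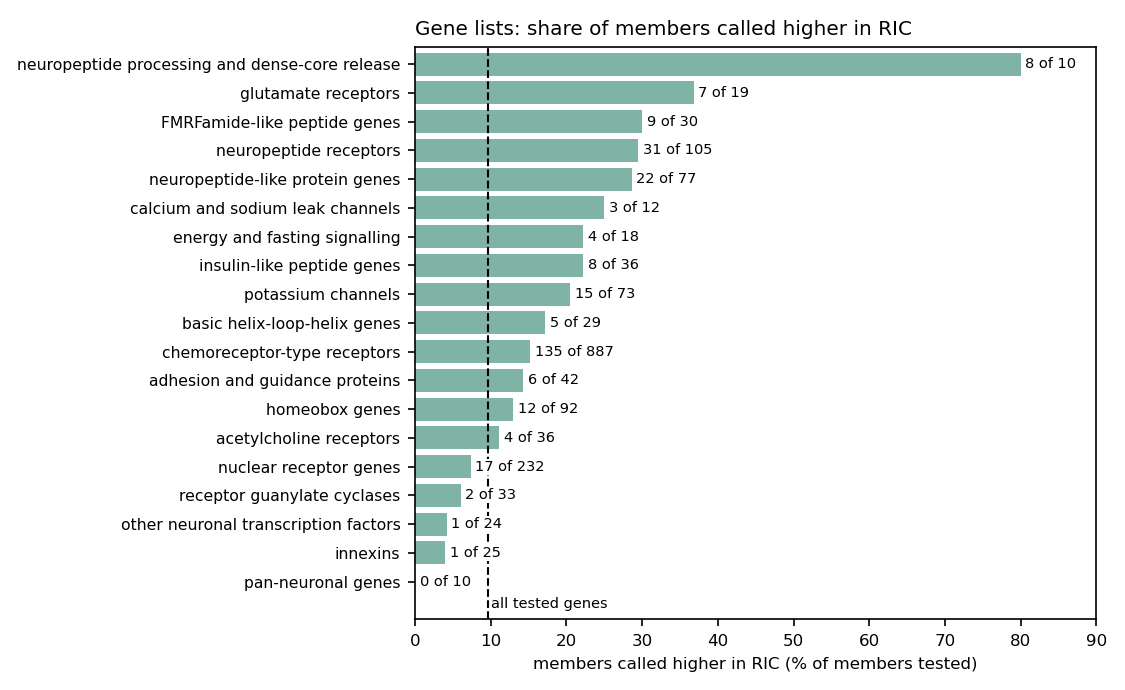
Share of tested members of each list called higher in RIC than in the mean of the other 52 classes (bars, with the counts beside them), for lists with at least 10 tested members. The dashed line is the share of all tested genes, 9.68%. Peptide processing (8 of 10) and glutamate receptors (7 of 19) have the highest shares, followed by FMRFamide-like genes (9 of 30).

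Over all genes, 1977 of the 20427 tested were called higher and 0.671% of the tested genes lower in RIC than in the mean of the other classes. Without RICr135, 2177 (10.7%) were higher and 589 (2.88%) lower, with 1785 of the higher genes shared. Without RICr136 and without RICr137 the lower calls numbered 26 and 22, and without RICr134 the higher calls numbered 1216. Of the 1977 genes, 1520 were protein-coding and 1099 had a mean of at least 10 CPM in RIC. For 845 of them at least 1 other class had no count, and the fitted difference then depends on the prior count of the fit. Genes with such an empty class can hardly be called lower by this contrast, whatever their level in RIC. F23H12.7 had at most 2 counts in any RIC library, against a median class mean of 0.671 CPM. Its log2 difference was -2.79 with an SE of 2787000. With all other libraries taken as one group, where differences among the 52 classes count as spread, 0.948% of genes were higher, all among the 1977, and 3 genes were lower (1131 were lower at an unadjusted p under 0.05).

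In 13 genes, 11 of them protein-coding, every RIC library lay above every other library at 10 CPM or more (0.0636% of the genes tested), and in 42 without RICr135, the 13 included. Several of them lie next to the genes of octopamine synthesis. H13N06.7 overlaps tbh-1 on the opposite strand and had 1417, 292, 795 and 782 CPM, with counts at 0.216 to 0.230 of those of tbh-1 in each RIC library. Whether the counting used strand is not given in the sources used here, so its reads cannot be told apart from those of tbh-1. The ZIP-type zinc transporter gene zipt-7.2, which lies 1142 bases from tbh-1, had 2424, 552, 1452 and 1322 CPM in RIC against at most 66.1 CPM in any other class mean.

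Near tdc-1, the non-coding gene K01C8.11 (250 bases away) had 2807, 518, 2563 and 2361 CPM in RIC and 7.01 to 40.4 CPM in RIM, and K01C8.2 (1146 bases away) had 778, 200.6, 698 and 531 CPM against 26.3 to 129.3 CPM. Both neighbours were higher in RIC than in RIM without overlap (log2 differences 6.15 and 2.57, edgeR adjusted p = 0.000782 and 0.00885), whereas tdc-1 was not. The next gene on that side, srdh-1 (3237 bases from tdc-1), which overlaps K01C8.2 on the opposite strand, had 305, 69.5, 203.9 and 227.1 CPM in RIC, the highest class mean, against a RIM mean of 9.47 CPM (log2 difference from the other classes 4.37, edgeR adjusted p = 1.20e-30). On the other side gei-14, which overlaps the end of tdc-1 on the opposite strand, had 7.21 to 16.4 CPM and was not called, and neither was gob-1 (2752 bases from tbh-1), at 22.3 to 30.7 CPM. These neighbours were examined after the values of the top genes had been seen.

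Of 7 genes often carried on transgene constructs, 3 were called higher and 1 lower in RIC (42.9% higher, against 9.68% higher and 0.671% lower of all genes). RIC had the highest class means of lin-15B (36242, 8588, 23095 and 23200 CPM), lin-15A (13637, 3007, 7830 and 8459 CPM) and let-858 (3423, 635, 4005 and 2861 CPM), against 34.8 to 53.1, 6.59 to 14.4 and 68.6 to 87.8 CPM in RIM. The genes lin-15A and lin-15B overlap, so that their counts are uncertain. For pha-1, also a construct gene, RIM had 1674 to 10636 CPM and RIC 2.95 to 9.90 CPM. The constructs in the sorted strains are not given in the sources used here. The part of constructs in the levels of these genes, of tbh-1 and tdc-1 themselves and of their neighbours was not tested.

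The remaining protein-coding genes above every other library were T09A5.14 (773, 286, 630 and 603 CPM), Y76B12C.8 (2443, 574, 2089 and 2120 CPM), txt-10 (400, 79.1, 323 and 294 CPM), the C-type lectin gene clec-264 (323, 64.1, 226.2 and 227.4 CPM), T20F5.8 (62.8, 14.3, 42.3 and 47.7 CPM) and the F-box gene fbxa-60 (92.5, 22.6, 36.1 and 45.4 CPM). Their log2 differences ran from 4.06 (fbxa-60) to 8.52 (T09A5.14, which overlaps cex-2). AFD, with 170 CPM of T09A5.14, and AVM, with 160 CPM of Y76B12C.8, were the nearest classes. For the other 4, no class mean exceeded 16.6 CPM.

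Named by rule among the genes called lower were 8 protein-coding genes. The TRIM-family gene lin-41 had 36.6, 45.1, 28.8 and 35.7 CPM, against a median class mean of 116 CPM (log2 difference -1.73, SE 0.39, edgeR adjusted p = 0.000499). The DNA-end-binding gene cku-70 had 5.81, 8.99, 3.61 and 3.31 CPM, the lowest of the 53 class means, against a median of 16.4 CPM (-1.66, SE 0.33, adjusted p = 3.68e-05), and was 1 of the 3 genes still lower against the one group (adjusted p = 0.0213). The gene srap-1 had 24.3, 51.95, 24.9 and 19.4 CPM against 137.4 CPM, and lost its call without RICr137 (adjusted p = 0.0561). The other genes named by the same rule were pha-1 (above), F48A9.2, T01D3.3, F35B12.9 and pks-1, at 0.656 to 3.70 CPM in RIC, and the last 3 lost their calls when 1 RIC library was left out (adjusted p from 0.0854 to 0.193).

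Directly between RIC and RIM, 822 genes were higher in RIC and 771 higher in RIM of the 10889 tested (7.55% and 7.08%). In 640 and 545 genes (5.88% and 5.01%) the libraries did not overlap and the higher class had a mean of at least 10 CPM. Both counts moved with single libraries. RIMr224 was the lowest RIM library for tdc-1, cat-1 and pha-1, and without both it and RICr135, a setting chosen after seeing the data, the counts were 2076 and 2020. Without RICr135 alone they were 1247 and 1386, and without RIMr224 alone 1245 and 1155. Without any 1 of the other 6 libraries, they ranged from 471 to 555 and from 468 to 800.

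Of the 8 genes named for the largest fitted differences in favour of RIM, several had at most 2 counts in any RIC library. F23H12.7 had 1273, 1368, 180 and 1428 CPM in RIM and at most 2 counts in a RIC library (edgeR adjusted p = 0.000207). ZC178.2 had 666, 761, 278 and 1043 CPM in RIM and at most 1 count in RIC (adjusted p = 7.22e-05). F53B7.4 (52.3 to 321 CPM), F10C1.1 (4.81 to 20.6 CPM) and the F-box gene fbxc-34 (7.74 to 60.02 CPM) had at most 2, 0 and 1 counts in a RIC library, and dmd-5, pha-1 and cex-1, described above, were the others named. Against a floor of 3 counts per library, F10C1.1 was at least 14.02-fold higher in RIM. In the other direction, beyond tbh-1, H13N06.7 and the lin-15 genes, spig-6 had 48.6, 8.76, 33.1 and 34.2 CPM in RIC and at most 1 count in any RIM library (adjusted p = 0.000246).

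Across the tested genes the RIC profile was not closest to that of RIM. The class most like RIC by Pearson's r of mean log2(CPM + 1) was RMD (0.943), followed by PVQ (0.935), BAG (0.935), SMD (0.934) and AIM (0.933), and RIM ranked 16th (0.920). Without RICr135, RMD stayed first (0.934), with BAG second and RIM 11th (0.911). These correlations are across genes, which are not independent replicates, and profiles differ in depth and in the levels of other tissues' markers, whose part was not tested.

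Of 6 germline markers 2 were called higher in RIC (33.3%, against 9.68% of all genes). The genes gld-1 (318, 196.8, 287 and 280 CPM) and glh-1 (275, 156.4, 203.9 and 191.9 CPM) passed the test, against median class means of 88.2 and 90.2 CPM (edgeR adjusted p = 0.000246 and 0.0164), while pgl-1, pgl-3, mex-3 and htp-3 were not. The call of glh-1 was lost without RICr134, RICr136 or RICr137 (adjusted p up to 0.193). The collagen gene col-19 was the 1 of 6 hypodermis markers called (58.2, 161.2, 152.1 and 114 CPM, adjusted p = 0.0435), and lost the call without any 1 of the RIC libraries (adjusted p up to 0.197). Gonadal sheath cells, which also express tbh-1, were checked by lim-7 (3.79 to 12.4 CPM) and ceh-18 (12.8 to 42.6 CPM), near the median class means of 7.77 and 38.4 CPM and not called. The part of these tissues in the RIC values was not tested.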

How the data were processed

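The deposited table holds whole-number read counts per gene and library, which the authors made with STAR 2.7.7a, UMI-tools 1.1.4 and featureCounts of Subread 2.0.3, per the submitters' processing notes. The table's name gives annotation WS289, and counting settings, strand and multi-mapped reads are not given in the sources used here. Of its columns, the 205 named in sample titles were used (4 RIC and 201 of the other 52 classes), and 14 further columns of per-sample values were not.

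Counts were scaled by TMM and filtered with filterByExpr by class, which left 20427 genes. edgeR 4.0.16 (R 4.3.3) fitted a quasi-likelihood model to all 205 libraries with the class as its term. The tested contrast set RIC against the unweighted mean of the 52 other class coefficients. These coefficients are on a log scale, so this is a mean of log levels and not of CPM. A class with no count has no finite log level, so lower calls in RIC are hardly possible for such genes. A fit on the 8 RIC and RIM libraries tested RIC against RIM. P-values were adjusted by Benjamini-Hochberg over all genes tested, with a threshold of 0.05, and standard errors are the log2 difference over the square root of F. Alternatives used limma-voom (limma 3.58.1), DESeq2 1.42.0, RLE scaling, no filter, gene-wise dispersions, no ribosomal RNA genes, the 46 classes of the described kit, all other libraries as one group, and each library left out in turn. The members and gene lists were chosen with earlier results of these data known.

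Named by rule were all members of lists of 10 genes or fewer and, for longer lists, up to 6 called members of largest fold in each direction with at least 10 CPM. Of all genes, the rule named up to 15 protein-coding and 4 other genes above every other library in every RIC library, the 8 protein-coding genes called lower with the most negative difference and every RIC library below the median class, and the 8 with the largest fold in each direction between RIC and RIM without overlap. Gene coordinates and exon lengths came from the deposited table, and overlaps were found from these coordinates. Biotypes came from the Ensembl 115 annotation of WBcel235. Of the table's genes found in that annotation, 99.85% had the same coordinates there.

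On simulated counts for 17828 genes, the contrast with the mean of the classes called 12.1%, 56.7% and 85.1% of genes changed by 1, 2 and 3 on the log2 scale, with 2 false calls. The RIC and RIM fit, on 10409 genes, called 9.68%, 49.2% and 89.8%, with 4 false calls. The simulated counts held no differences between classes beyond the genes changed in RIC. Their noise followed the fitted dispersion trend, with no library set apart as RICr135 was. The real data differ in both respects, so the false calls do not measure the error of the calls reported here. The labels do not say whether libraries of a class came from separate cultures, so p-values measure the spread between these libraries, which may be technical. No sequence is given, as no genome of the table's build was used here.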

Additional observations from a re-analysis of the deposited data

Results flagged for a closer look

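For 40 genes or list sums, 1 of the 4 RIC libraries lay apart by more than Dixon's 95% critical value, which chance passes in about 1 in 20 sets. These were 17.9% of the sets examined, and RICr135 was the library apart in all 40. The sets share the same 4 libraries, and the sums hold genes also examined singly, so the sets are not independent. Their share can therefore not be set against 1 in 20. The values below are the gap of RICr135 to the nearest library over the whole range.

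RICr135 was lowest for genes of peptide signalling. The ratios were 0.902 for flp-5, 0.877 for flp-16, 0.942 for flp-22, 0.899 for nlp-13, 0.889 for nlp-57, 0.864 for egl-21, 0.855 for pghm-1 and 0.864 for sbt-1. The summed FMRFamide-like genes gave 0.867 and the neuropeptide-like protein genes 0.898. It was also lowest for the transmitter and receptor genes cho-1 (0.849), eat-4 (0.881), ser-6 (0.843), tyra-3 (0.847), lgc-38 (0.854) and srd-33 (0.958), and for the summed genes of GABA release (0.908). Further genes where it was lowest were hlh-13 (0.897), nhr-128 (0.881), mps-2 (0.893), F17C11.2 (0.89) and K03B4.4 (0.917).

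RICr135 was highest for genes of other tissues. The muscle genes gave 0.937 for mup-2, 0.975 for myo-3, 0.985 for unc-15, 0.972 for unc-27, 0.976 for tnt-2 and 0.835 for tni-3, and their sum 0.995. The pharynx genes myo-1 and myo-2 gave 0.962 and 0.997, with 0.975 for the sum. The intestine genes asp-1, vit-2 and vit-6 gave 0.99, 0.913 and 0.94, with 0.965 for the sum. It was also highest for bli-1 (0.941), pgl-3 (0.846), cat-4 (0.889) and srap-1 (0.83). The part of these other tissues in the RICr135 values was not tested.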

How the results depend on the processing

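Shares are percentages of the genes tested. Genes higher in RIC than the mean of the classes were 9.68%, and became 6.23% by limma-voom, 0.948% with the other libraries as one group, and 5.96% to 10.7% when 1 RIC library was left out. With limma-voom and 1 RIC library left out they were 3.38%, 4.35% and 4.28% without RICr134, RICr136 and RICr137, and 8.41% without RICr135. Genes lower were 0.671%, and became 1.39% with RLE scaling, 1.92% by limma-voom, 0.0159% with one group, 1.45% with the 46 kit classes, and 0.108% to 2.88% when 1 library was left out. With limma-voom they were 0.627% to 5.21% when 1 library was left out, with 1.04% without RICr136. The median log2 difference of all genes moved from 0.02 to -0.13 with RLE scaling, -0.17 by limma-voom, -0.44 with one group and -0.20 without RICr135. Genes above every other library in every RIC library numbered 13, and 13 to 42 when 1 library was left out. Genes higher in RIC than in RIM were 7.55%, and became 11.37% with DESeq2, 4.01% to 11.38% when 1 library was left out, and 20.6% without RICr135 and RIMr224, a setting chosen after seeing the data. Genes higher in RIM were 7.08%, and became 3.99% to 12.47% and 20.04% under the last settings.

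With all other libraries as one group, 7 named genes reversed in sign, while 48 named genes kept their call and 81 lost it. The log2 differences became -1.84 for ceh-24, -1.26 for flp-12, -0.13 for flp-8, -1.06 for ins-17, -0.97 for lim-4, -0.63 for nhr-6 and -0.31 for unc-3. None of these reversed values passed the test (SE 1.12 to 1.91, edgeR adjusted p from 0.699 to 0.974). Over 15 settings, 1747 of 2040 values of named genes kept direction and call, and 286 lost the call. Between RIC and RIM, 1449 of 1590 kept both and none reversed. The mean of the classes is a mean of log levels, whereas the one-group fit pools the other libraries. The cause of these changes was not tested. No paired analysis was possible because each library has a replicate number of its own in the labels. Low counts limit the genes described by at most 3 counts.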

Other observations

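The genes below were chosen after their values were seen, and K03B4.4 and M03D4.3 also met the naming rule between RIC and RIM. F17C11.2 had 13604, 3596, 12970 and 12505 CPM in RIC and 683 to 3968 CPM in RIM, with a log2 difference from the mean of the classes of 7.34 (SE 0.19). Against RIM its log2 difference was 2.06 (edgeR adjusted p = 0.029), a call lost when single libraries were left out (adjusted p up to 0.0904). K03B4.4 had 6320, 1220, 6781 and 6398 CPM in RIC and 6.84 to 28.3 CPM in RIM, and ASER had 1176 CPM (8.12, SE 0.23, edgeR adjusted p = 3.74e-75). The RIC and RIM libraries overlapped for F17C11.2 and not for K03B4.4.

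The F-box gene fbxb-88 had 66.7, 6.51, 31.5 and 34.4 CPM in RIC (7.79, SE 0.35, edgeR adjusted p = 2.6e-44). F08G12.11 had 56.4, 7.57, 39.7 and 46.4 CPM, a log2 difference of 7.67. The potassium channel subunit gene mps-2 had 74.5, 16.9, 73.1 and 68.3 CPM (3.59, SE 0.35), and overlaps K01A2.4 on the opposite strand. RICr135 was the lowest library for each of these genes. M03D4.3 had 4424, 1527, 2803 and 3843 CPM and overlaps lag-1 on the opposite strand, so that its counts are uncertain.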
